A study of Mus musculus with 23 samples.

Results

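Bdh1, Oxct1 and Acat1 encode the enzymes that turn ketone bodies into acetyl-CoA in mitochondria. All probe sets carrying exactly one of these gene symbols in the platform table were taken, which gave 3 of 12393 named genes and 9 of the 22690 probe sets on the array. Bdh1 has 2 of them, Oxct1 4 and Acat1 3, and 8 of the 9 passed the filter on low values. The genes were chosen from earlier results of these data, in particular the low Bdh1 signal of suspended calf muscle. Differences of the 3 genes within the calf experiment are therefore descriptions with no test, and only the flight comparison, which rests on other arrays, is tested for them.

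The muscles came from female C57BL/6J mice, 77 days old, and each of the 23 samples was read on its own Affymetrix array. Gastrocnemius was taken from mice after 11 days and 19 hours of shuttle flight (spaceflight, n = 4), or after as long on Earth in the animal enclosure module, the flight cage (ground AEM, n = 4). Calf muscle was taken from mice that had their hindlimbs unloaded by tail suspension at about 30 degrees for 12 days and were let down for 3.5 hours (reloaded, n = 5), from mice suspended for 12 days (suspension, n = 5), and from untreated, normally housed mice (control, n = 5). The labels name no transgene and no drug in any group, and the interval from landing to dissection is not given in the sources used here. Titles, source names and design text place each flight sample in the same group, but the free-text notes of the 2 flight groups are swapped. Were those notes correct, all flight differences would change sign. Replicates carry numbers only, with nothing to show that each was another mouse, so p-values reflect the spread of these samples, which may be technical.

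The skeletal muscle markers Ckm, Acta1, Mb and Des were bright everywhere, with a mean log2 signal of 13.19 to 13.31 on each array. The median log2 signal of an array was 6.15 to 6.23 for flight arrays and 6.28 to 6.39 for calf arrays, and the interquartile range was 2.75 to 2.91 and 2.20 to 2.46. Levels were therefore not compared across the 2 experiments. Suspension replicate 8 had the narrowest interquartile range (2.20) and the lowest median correlation with its group (0.985), followed on both by suspension replicate 9 (2.29 and 0.989). Suspension differences of the 8 probe sets of the 3 genes that passed the filter are given with and without these 2 arrays. So are the calls of other genes in the calf experiment, a step added after the calls were seen.

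Ketone bodies are made by the liver from fatty acids during fasting and are burned by muscle, heart and brain. Muscle takes up β-hydroxybutyrate and acetoacetate through monocarboxylate transporters, and Bdh1, a dehydrogenase of the inner mitochondrial membrane, oxidises β-hydroxybutyrate to acetoacetate. Oxct1 then moves CoA from succinyl-CoA to acetoacetate, a step that liver lacks, and Acat1 splits acetoacetyl-CoA into acetyl-CoA for the citric acid cycle. Acat1 also acts in the breakdown of isoleucine. Slow-twitch fibres are richer in mitochondria than fast glycolytic fibres, and in mouse muscle the coactivator PGC-1α, encoded by Ppargc1a, is known to raise genes of ketone body oxidation.

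RefSeq's promoter table (build GRCm38.p6) held entries for Bdh1 and Oxct1. The 250 bases before each of the 2 Bdh1 transcription starts are shown because Bdh1 had the largest differences of the 3 genes. Both lie on the plus strand, at chr16:31422047-31422296 for the upstream start and chr16:31428503-31428752 for the downstream start.
Bdh1 upstream start: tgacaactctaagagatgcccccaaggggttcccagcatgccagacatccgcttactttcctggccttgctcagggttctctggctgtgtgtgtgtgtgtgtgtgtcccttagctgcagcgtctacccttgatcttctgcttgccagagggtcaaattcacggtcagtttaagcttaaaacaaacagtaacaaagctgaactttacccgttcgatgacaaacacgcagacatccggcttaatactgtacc
Bdh1 downstream start: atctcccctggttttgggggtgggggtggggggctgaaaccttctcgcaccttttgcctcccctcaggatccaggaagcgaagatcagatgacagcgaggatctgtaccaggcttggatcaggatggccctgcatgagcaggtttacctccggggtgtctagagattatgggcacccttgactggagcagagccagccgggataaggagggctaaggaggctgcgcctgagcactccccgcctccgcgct
The upstream window is 49.6% G and C and the downstream window 60.8%. Both strands of these windows and of the Oxct1 window (chr15:4026178-4026427, plus strand) were searched for the nuclear receptor core AGGTCA, present in 14.0% of 32851 promoter windows of this length, and the oestrogen-related receptor element TCAAGGTCA, which contains it and is present in 0.387%. Neither was found in the 3 windows. This says only that these letters are not in these windows.

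Bdh1 was lower in spaceflight than in ground AEM muscle, by a wide margin on 3 of the 4 flight arrays. Its brighter probe set, 1452257_at, had log2 signals of 6.31, 6.55, 6.86 and 8.00 in spaceflight, against 7.93, 8.22, 8.57 and 8.77 in ground AEM. The value of 8.00 belongs to spaceflight replicate 10, which lay above ground AEM replicate 2, so the groups overlap by this pair. The means were 6.93 ± 0.75 in spaceflight and 8.37 ± 0.37 in ground AEM (SD, n = 4 each). Bdh1 fell by 1.44 on the log2 scale (SE 0.30, limma adjusted p = 0.0126 over 14851 probe sets), which leaves spaceflight at 36.8% of the ground signal, and no other probe set tested had a lower log2 difference. In bulk tissue, fewer cells of a type and less RNA per cell cannot be told apart.

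The second Bdh1 probe set, 1426959_at, is dim and did not pass the filter, a log2 signal above 5.83 on at least 4 arrays. It read 3.84, 3.86, 4.09 and 5.17 in spaceflight, against 5.08, 5.40, 5.65 and 5.69 in ground AEM. Spaceflight replicate 10 was again the high flight array and again overlapped ground AEM replicate 2. Its log2 difference was -1.22 ± 0.24 (SE, limma adjusted p = 0.0137 over 22626 probe sets without the filter). The call of 1452257_at was lost with eBayes trend and robust estimation (log2 difference -1.44, limma adjusted p = 0.0916). Without spaceflight replicate 10 its difference was -1.80 ± 0.18 (SE, limma adjusted p = 0.000497).

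**Figure D1:**
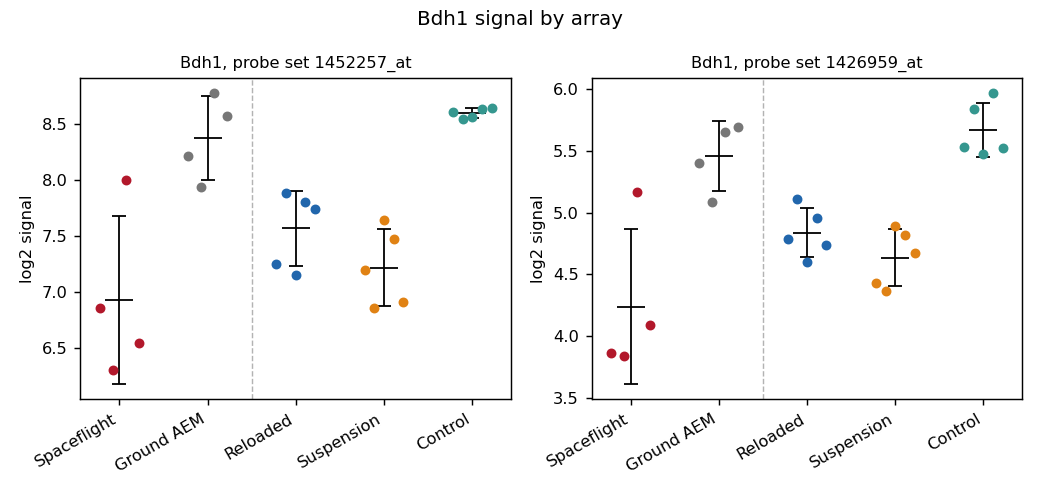
Log2 signal of both Bdh1 probe sets on each array (points), with the group mean and SD (bars), for the flight experiment left of the dashed line and the calf experiment right of it. In both panels 3 of 4 spaceflight points lie below all ground AEM points, and all reloaded and suspension points lie below all control points.

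In the calf experiment Bdh1 was lower after suspension and also lower than control after 3.5 hours of reloading. Probe set 1452257_at read 7.16, 7.25, 7.75, 7.81 and 7.88 in reloaded muscle, 6.86, 6.92, 7.20, 7.47 and 7.65 in suspension and 8.55, 8.56, 8.61, 8.63 and 8.64 in control. The controls lay close together, and every reloaded and suspension array lay below the lowest control. From low to high, the group means were 7.22 ± 0.34 in suspension, 7.57 ± 0.34 in reloaded and 8.60 ± 0.04 in control muscle (SD, n = 5 each), of which the reloaded and suspension arrays overlap. The log2 difference was -1.03 ± 0.15 for reloaded minus control, 0.35 ± 0.15 for reloaded minus suspension and -1.38 ± 0.15 for suspension minus control (SE). The signal was 48.9% of control in reloaded and 38.4% in suspension muscle. Without suspension replicates 8 and 9 suspension minus control was -1.25 ± 0.16 and reloaded minus suspension 0.22 ± 0.16. The 3 calf comparisons share arrays, and suspension minus control is the one that led to the gene.

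The dim Bdh1 probe set 1426959_at had means of 4.83 ± 0.20 in reloaded, 4.63 ± 0.23 in suspension and 5.67 ± 0.22 in control muscle (SD, n = 5 each). Its highest value was 5.11 in reloaded and 4.89 in suspension, against a lowest control value of 5.47, so neither group overlapped control here either. The flight effect minus the suspension effect, each taken within its own experiment, was -0.06 ± 0.33 for 1452257_at and -0.19 ± 0.27 for 1426959_at (SE), given with no test.

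**Figure D2:**
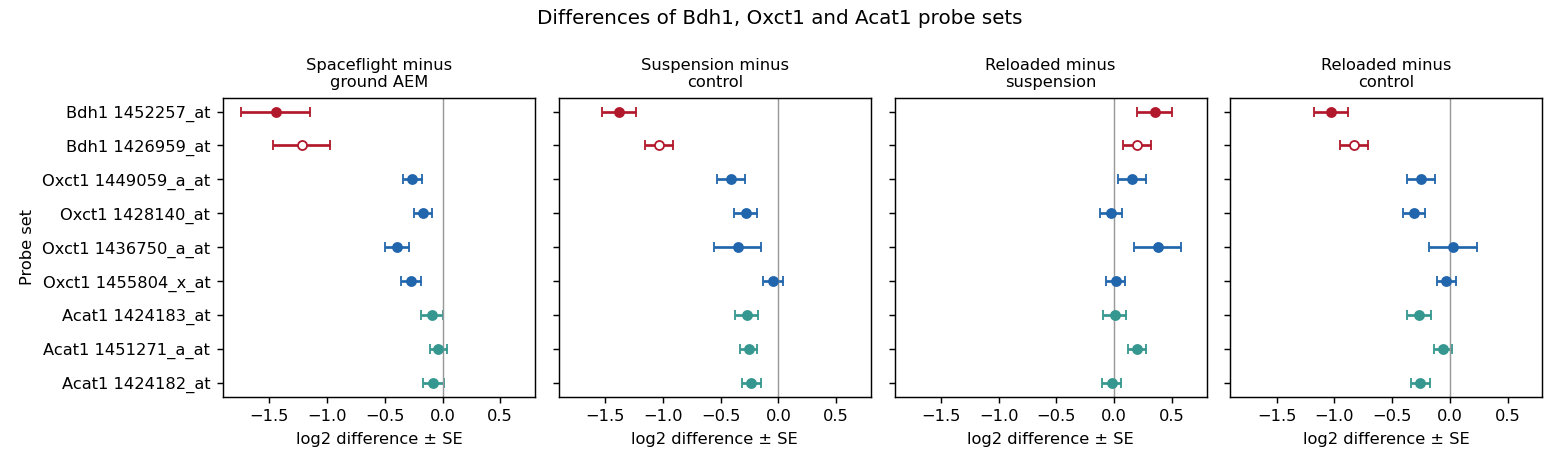
Log2 difference (point) and its standard error (bar) of all 9 probe sets in 4 comparisons, with the dim Bdh1 probe set that did not pass the filter as an open point. The brighter Bdh1 probe set lies at -1.44 in flight and -1.38 in suspension, and every Oxct1 and Acat1 difference lies between -0.41 (1449059_a_at, suspension minus control) and 0.38 (1436750_a_at, reloaded minus suspension), which were -0.18 and -0.02 without suspension replicates 8 and 9.

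Oxct1, the step after Bdh1, had slightly lower signals in spaceflight on all 4 of its probe sets, of which 1 passed the test. Its brightest probe set, 1449059_a_at, read 10.55, 10.69, 10.72 and 10.83 in spaceflight, against 10.84, 10.97, 10.98 and 11.04 in ground AEM. The groups do not overlap, although the nearest arrays almost touch. Its log2 difference was -0.26 ± 0.08 (SE, limma adjusted p = 0.0865), and it passed with eBayes trend and robust estimation (-0.26, limma adjusted p = 0.0284). Probe sets 1428140_at (-0.17 ± 0.08, limma adjusted p = 0.254) and 1455804_x_at (-0.27 ± 0.09, limma adjusted p = 0.0878) did not pass either. Probe set 1436750_a_at read 7.68, 7.84, 7.88 and 7.89 in spaceflight, against 8.04, 8.12, 8.19 and 8.51 in ground AEM, and fell by 0.39 on the log2 scale (SE 0.10, limma adjusted p = 0.0423). This call was lost without any one of 7 of the 8 arrays (limma adjusted p up to 0.103) and without the filter (0.0541). The mean of the 4 Oxct1 probe sets passed, with a log2 difference of -0.27 ± 0.07 (limma adjusted p = 0.0364 over genes).

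Of the 8 probe sets of Bdh1, Oxct1 and Acat1 that passed the filter, 2 were called lower in flight and 0 higher, where 3.11% of all probe sets tested were called lower and 6.36% in either direction. Spaceflight arrays lay wholly below ground AEM arrays for 4 of the 8, all of them Oxct1, where 6.67% of all probe sets did so. The 4 Oxct1 probe sets read transcripts of 1 gene and are not independent. The suffix of 1455804_x_at marks probes that can bind transcripts of other genes.

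In the calf experiment the Oxct1 probe sets did not move alike. Probe set 1449059_a_at read 10.37, 10.37, 10.50, 10.61 and 10.64 in reloaded, 9.82, 10.17, 10.53, 10.55 and 10.64 in suspension and 10.64, 10.74, 10.76, 10.80 and 10.82 in control muscle. The low suspension values of 9.82 and 10.17 are replicates 8 and 9. Its log2 difference from control was -0.25 ± 0.12 in reloaded and -0.41 ± 0.12 in suspension muscle (SE). Without replicates 8 and 9 the suspension difference was -0.18 ± 0.08, and reloaded minus suspension was -0.08 where it had been 0.16.

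Probe set 1428140_at of Oxct1 differed from control by -0.31 ± 0.10 in reloaded and -0.28 ± 0.10 in suspension muscle (SE), the second being -0.17 ± 0.09 without suspension replicates 8 and 9. Probe set 1436750_a_at read 6.49 to 7.95 in suspension, with replicates 8 and 9 lowest at 6.49 and 7.22, against 7.29 to 7.94 in control. Its suspension difference of -0.35 ± 0.21 was 0.04 ± 0.13 without those 2 arrays. Probe set 1455804_x_at differed from control by -0.03 in reloaded and -0.05 in suspension muscle, the second being 0.07 ± 0.08 without those arrays.

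Acat1, the last step, had no probe set that passed the test in flight, which does not show that its level was the same. Probe set 1424183_at read 10.29, 10.45, 10.48 and 10.60 in spaceflight, against 10.41, 10.45, 10.65 and 10.68 in ground AEM, and the groups overlap. Its log2 difference was -0.09 ± 0.09 (SE, limma adjusted p = 0.634). Probe sets 1451271_a_at (-0.04 ± 0.07, limma adjusted p = 0.812) and 1424182_at (-0.08 ± 0.09, limma adjusted p = 0.685) overlapped as well.

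In calf muscle all 3 Acat1 probe sets had lower means in reloaded and suspension muscle than in control. Probe set 1424183_at read 9.92 to 10.12 in reloaded (median 10.01) and 9.53 to 10.21 in suspension (median 10.07), against 10.20 to 10.36 in control. The reloaded arrays did not overlap control, and the suspension arrays did. Its log2 difference from control was -0.27 ± 0.10 both in reloaded and in suspension muscle (SE), and the suspension difference was -0.11 ± 0.07 without replicates 8 and 9. Probe set 1424182_at differed from control by -0.26 ± 0.08 in reloaded and -0.24 ± 0.08 in suspension muscle. Probe set 1451271_a_at differed by -0.06 ± 0.07 in reloaded and -0.26 ± 0.07 in suspension muscle. Without those 2 arrays the suspension differences were -0.18 ± 0.09 for 1424182_at and -0.17 ± 0.07 for 1451271_a_at.

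Reloaded arrays lay wholly below control for 4 of the 8 probe sets of the 3 genes that passed the filter, where 1.43% of all probe sets tested did. Suspension arrays lay wholly below control for 2 of the 8, where 1.21% did. Nothing is read from these shares, since the calf arrays took part in choosing the genes.

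**Figure D3:**
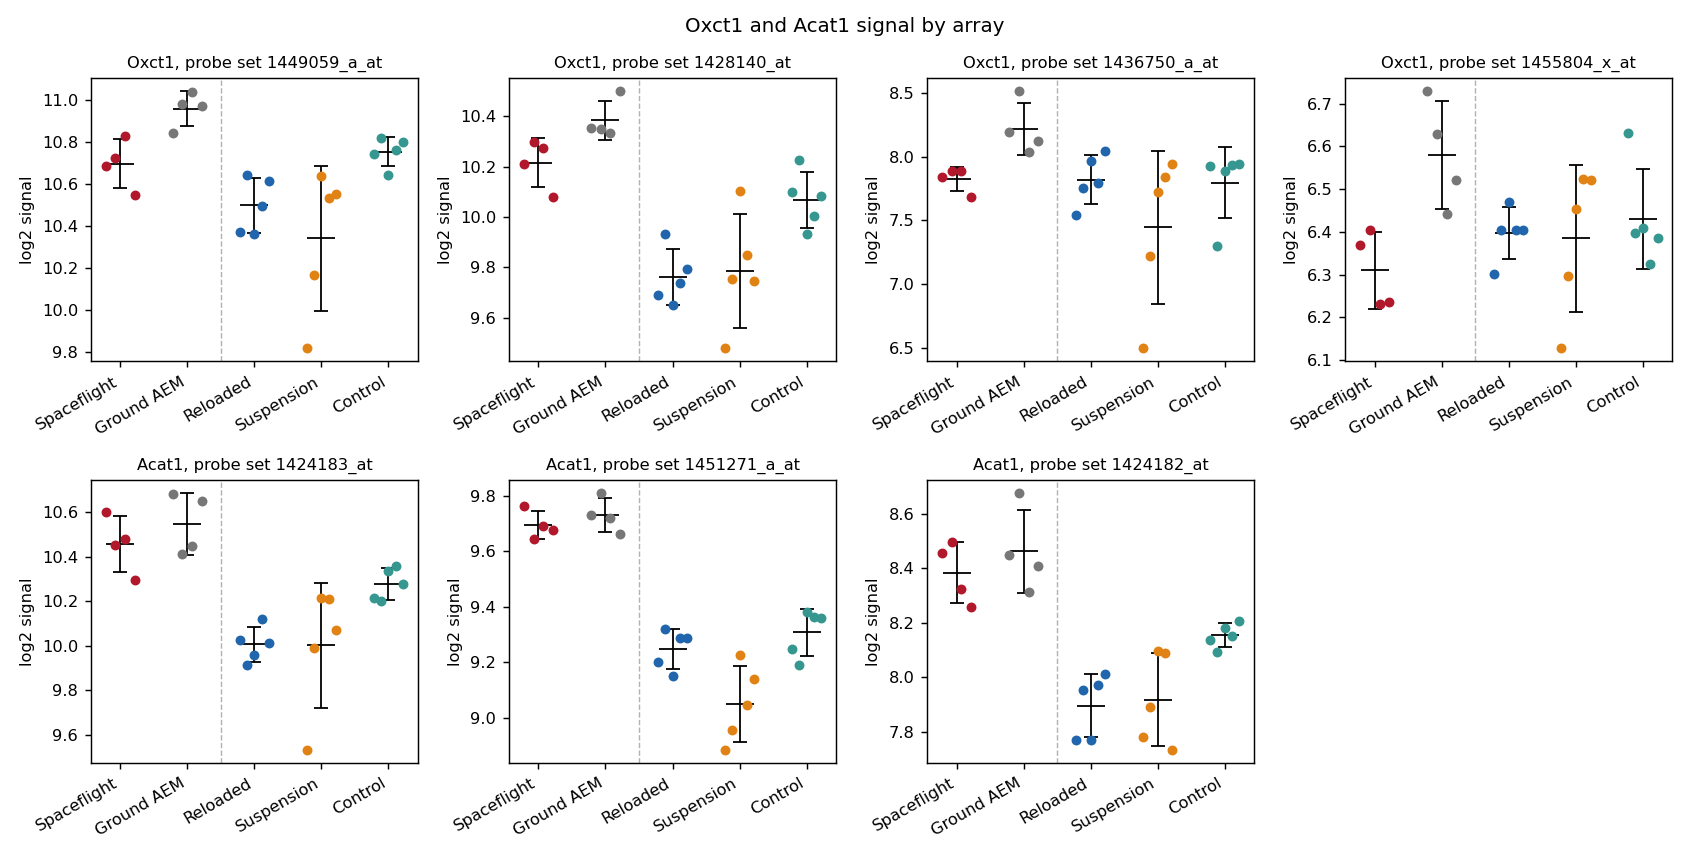
Log2 signal of the 4 Oxct1 and 3 Acat1 probe sets on each array (points), with the group mean and SD (bars), flight left and calf right of the dashed line. The lowest suspension points of Oxct1 are replicates 8 and 9, at 9.82 and 10.17 for 1449059_a_at and at 6.49 and 7.22 for 1436750_a_at.

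The signal of Bdh1 relative to the enzymes after it was compared on each array, in 3 comparisons chosen after the values were seen. Bdh1 (1452257_at) minus Oxct1 (1449059_a_at) differed by -1.18 on the log2 scale between spaceflight and ground AEM (exact two-sided permutation p = 0.0571). Bdh1 minus Acat1 (1424183_at) differed by -1.35 (exact permutation p = 0.0286, the smallest that 4 against 4 arrays allow), and Bdh1 minus the mean of 14 mitochondrial marker genes by -1.32 (exact permutation p = 0.0571). Adjusted over the 3 comparisons each exact permutation p was 0.0571, so none passed. Against Oxct1, Acat1 and the mitochondrial genes the differences were -0.78, -0.76 and -0.97 in reloaded minus control, and -0.97, -1.11 and -1.29 in suspension minus control, given with no test.

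Transporters of ketone bodies gave no call. Of 4 listed genes of ketone body uptake, 3 passed the filter and 0 were called in any of the 4 comparisons. Slc16a1, the monocarboxylate transporter MCT1, differed by -0.24 ± 0.13 in flight (SE, limma adjusted p = 0.335) and by -0.30 ± 0.12 in suspension minus control (limma adjusted p = 0.464). Its partner protein Bsg, basigin, differed by -0.05 in flight and -0.01 in suspension, and the lactate exporter Slc16a3 by 0.10 and 0.08. Slc16a7, which encodes MCT2, lay below the filter, with group means of 3.62 to 3.89.

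Of 6 listed enzymes related to the 3 by reaction, 3 were tested and 0 were called in any comparison. Aacs, which activates acetoacetate for lipid synthesis in the cytosol, differed by -0.10 ± 0.11 in flight and 0.23 ± 0.10 in suspension (SE, limma adjusted p = 0.654 and 0.512), and its other 2 probe sets by 0.14 and 0.12 in flight and 0.05 and 0.12 in suspension. Hmgcs1, the cytosolic synthase of the cholesterol pathway, differed by 0.01 in flight and 0.16 in suspension, and its other 3 probe sets by -0.15 to -0.11 in flight and 0.04 to 0.21 in suspension. Oxct2a, described in mouse as a testis form of Oxct1, differed by -0.04 and -0.17. The other enzymes of this list and the 2 listed enzymes of ketone body synthesis were not analysed here.

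Ppargc1a and Ppara, which encodes a lipid-sensing nuclear receptor, fell in flight, 2 of 9 tested regulators, beside 3.11% of all probe sets called lower. The 9 flight differences had a median of -0.04, and 8 of them lay below 0. Ppargc1a read 8.11 to 8.37 in spaceflight, against 8.98 to 9.71 in ground AEM (log2 difference -1.23 ± 0.14, SE, limma adjusted p = 0.000471), and its other 4 probe sets differed by -1.08 to -0.55. Ppara read 7.07 to 7.83 in spaceflight, against 8.02 to 8.57 in ground AEM (-0.82 ± 0.16, limma adjusted p = 0.0111). In the calf experiment Ppargc1a read 6.61 to 7.12 in suspension, against 6.64 to 6.98 in control (-0.04 ± 0.28, limma adjusted p = 0.986), where Bdh1 differed by -1.38. Ppargc1a rose by 1.29 ± 0.28 in reloaded over suspension muscle (limma adjusted p = 0.0352), with values of 6.89 to 9.41 in reloaded muscle, where Bdh1 differed by 0.35. Without suspension replicates 8 and 9 this Ppargc1a call was lost (1.19 ± 0.33, limma adjusted p = 0.270). Ppara differed by 0.28 in reloaded minus suspension and -0.29 in suspension minus control (limma adjusted p = 0.479 and 0.512).

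Of 16 tested genes of fatty acid uptake and oxidation, 0 were called in flight, and Fabp3, the fatty acid binding protein of muscle, was the 1 called in the calf comparisons with control. Fabp3 fell by 0.75 in reloaded and by 1.03 in suspension muscle relative to control (SE 0.14 each, limma adjusted p = 0.0206 and 0.0021), and differed by -0.44 in flight (limma adjusted p = 0.118). Without suspension replicates 8 and 9 both Fabp3 calls were kept, at -0.75 in reloaded and -0.94 in suspension muscle (limma adjusted p = 0.0152 and 0.0342). The median of the 16 was -0.14 in flight, -0.26 in reloaded minus control and -0.24 in suspension minus control, beside -0.02, -0.01 and 0.00 over all probe sets tested. All 16 differences lay below 0 in both comparisons with control. Of all probe sets, 0.337% were called in reloaded minus control, 0.579% in reloaded minus suspension and 0.377% in suspension minus control.

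Of 11 tested genes that make or use succinyl-CoA and acetyl-CoA, 0 were called in any comparison, with medians of -0.13 in flight and -0.15 in suspension minus control. Of 19 tested genes of branched-chain amino acid breakdown, the other pathway of Acat1, 0 were called, with medians of 0.02 and -0.10. Of 14 tested mitochondrial markers, 0 were called, with medians of -0.10 and -0.09.

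**Figure D4:**
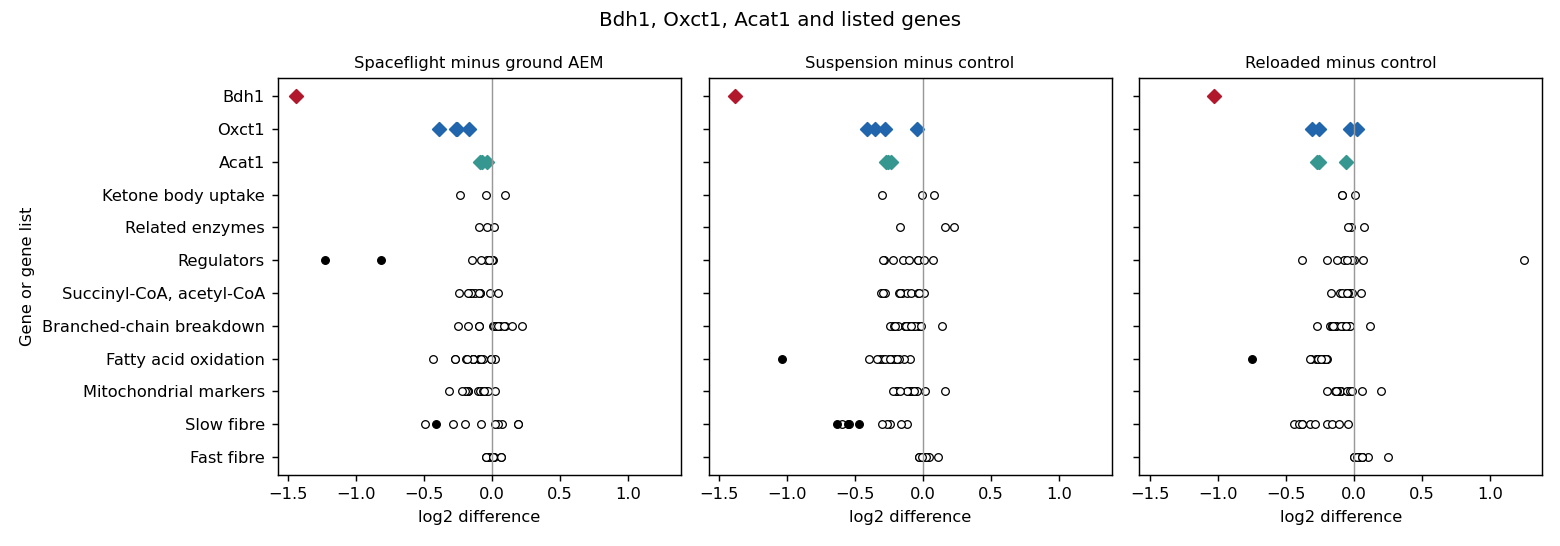
Log2 differences of the 8 tested Bdh1, Oxct1 and Acat1 probe sets (diamonds) and of the genes of 9 lists (circles, filled where the adjusted p was under 0.05) in 3 comparisons. Bdh1 lies below every listed gene in each panel, with Ppargc1a nearest in flight (-1.23) and Fabp3 nearest in suspension (-1.03) and reloaded muscle (-0.75).

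The mean log2 signal of 10 slow fibre genes was 10.54, 10.62, 10.86 and 11.17 in spaceflight, against 10.80, 10.82, 10.90 and 11.07 in ground AEM. Spaceflight replicate 10, the flight array with the high Bdh1 signal, had the highest of these 8 means. Of the 10 genes, 1 was called in flight, the slow myosin light chain gene Myl2, which fell by 0.42 on the log2 scale (SE 0.10, limma adjusted p = 0.0245), beside 3.11% of all probe sets called lower. The 10 differences ran from -0.49 to 0.19 with a median of -0.03, and 5 lay below 0. With the slow fibre mean as a covariate, an alternative set up once the arrays had been seen, the flight difference of Bdh1 was -1.21 ± 0.16 (SE, limma adjusted p = 0.00183).

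In calf muscle the slow fibre mean was 10.91 to 11.59 in reloaded and 11.05 to 11.36 in suspension, against 11.53 to 11.69 in control. All 10 differences lay below 0 in both comparisons with control, with a median of -0.30 in reloaded and -0.39 in suspension muscle. Of the 10 genes, 0 were called in reloaded minus control, beside 0.337% of all probe sets, and 3 fell in suspension minus control, beside 0.377%. The 3 were Casq2, a calcium store protein of slow and cardiac muscle (-0.64, limma adjusted p = 0.0139), the light chain gene Myl3 (-0.47, limma adjusted p = 0.0190) and Myoz2, a Z-disc protein (-0.56, limma adjusted p = 0.0411). Without suspension replicates 8 and 9 none of these 3 calls was kept, with -0.53 for Casq2, -0.34 for Myl3 and -0.57 for Myoz2 (limma adjusted p = 0.0794, 0.121 and 0.0762). With the covariate the Bdh1 difference from control was -0.75 ± 0.15 in reloaded and -0.98 ± 0.18 in suspension muscle (SE). Of 10 fast fibre genes, 0 were called in any comparison, with medians of 0.00 to 0.05.

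**Figure D5:**
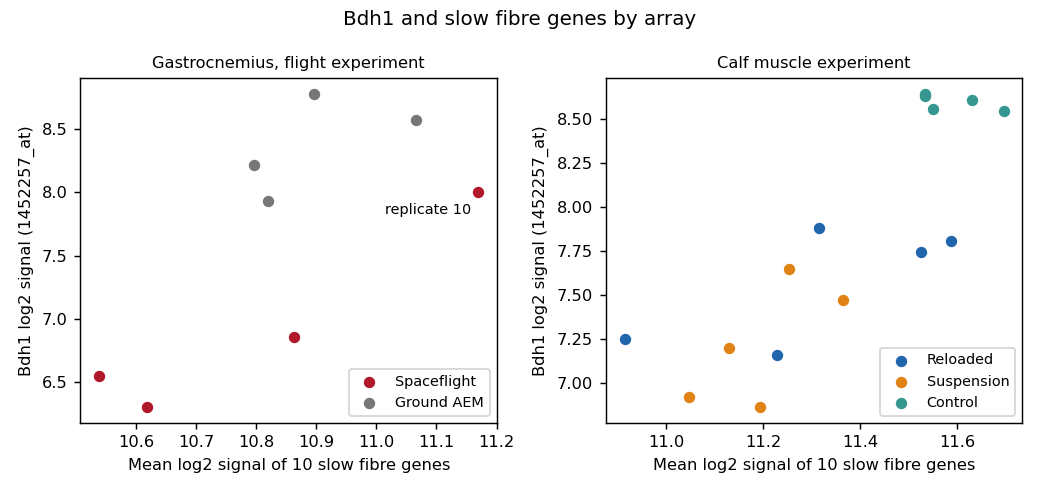
Bdh1 log2 signal (1452257_at) against the mean log2 signal of 10 slow fibre genes, 1 point per array. The Pearson correlation of Bdh1 with this mean was 0.698 over the 8 flight arrays and 0.837 over the 15 calf arrays, given with no test. Slow fibre genes were not the list closest to Bdh1. The mean of the fatty acid uptake and oxidation genes had 0.858 over flight and 0.880 over calf arrays, and that of the endothelial genes 0.902 and 0.534. Spaceflight replicate 10 has the highest slow fibre mean (11.17) and the highest Bdh1 signal (8.00) of its group. Reloaded replicates 18 and 33 have slow fibre means close to control (11.59 and 11.52) with Bdh1 at 7.81 and 7.75.

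Markers of other cell types also moved with the groups. All 4 measured adipocyte markers, Adipoq, Retn, Cidec and Lep, rose in flight, where 6.36% of all probe sets tested were called in either direction. Their summed linear signal was 1322 to 1795 in spaceflight and 548 to 713 in ground AEM. In suspension 0 of the 4 were called, with sums of 1032 to 1586 in suspension and 517 to 993 in control. Of 3 Schwann cell markers, Mbp rose in suspension (1.87, limma adjusted p = 0.0354), where 0.377% of all probe sets tested were called in either direction. The 8 Mbp probe sets differed by 0.07 to 2.10 in suspension minus control. The sum of the 3 Schwann cell markers was 2692 to 4512 in suspension and 1183 to 1572 in control. Of 4 tested tendon markers, Chad fell in suspension (-0.57, limma adjusted p = 0.0280), with sums over the 5 measured of 1678 to 3272 in suspension and 2794 to 3360 in control. Without suspension replicates 8 and 9 neither call was kept (Mbp 1.84 and Chad -0.48, limma adjusted p = 0.177 each).

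In flight 0 of the 4 tested tendon markers were called, but all 4 differences were negative, from -0.51 to -0.23 with a median of -0.42. Their sums over the 5 measured were 975 to 1433 in spaceflight and 1158 to 2641 in ground AEM. The endothelial gene Kdr (-0.32) and the erythroid gene Alas2 (-0.28), the 1 tested of its list, fell in flight (limma adjusted p = 0.0348 and 0.0421). Of all probe sets tested, 3.11% were called lower in flight. Kdr was the 1 called of 5 endothelial genes, of which 2 lay below 0, with a median of 0.03 and a highest difference of 0.11. Of the markers tested, 5 for macrophages, 3 for liver, 1 for heart and 4 for skeletal muscle, 0 were called in any comparison. The part of these markers in the Bdh1 differences was not tested.

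Over the 15 calf arrays the genes most like Bdh1 (Pearson correlation of log2 signal with 1452257_at, among 9130 genes) were Etfa, a carrier of electrons from fatty acid oxidation (0.909), Myl3 (0.905), Casq2 (0.902), Fabp3 (0.897) and Idh2, the mitochondrial isocitrate dehydrogenase (0.876). Over the 8 flight arrays they were Trip6 (0.986), Tppp3 (0.981), Ppif, the mitochondrial cyclophilin (0.974), Atp1b1, a sodium pump subunit (0.973), and Myl2 (0.972). The second Bdh1 probe set had 0.940 over the calf and 0.980 over the flight arrays. Oxct1 1449059_a_at had 0.743 and 0.880, and Acat1 1424183_at 0.653 and 0.413. The arrays of an experiment fall into groups and share their normalization, and these values carry no test.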

How the data were processed

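RNA of 23 muscle samples was hybridised as biotin-labelled cRNA, per the labels' protocols. The deposited table holds log2 values from 2.49 to 14.2, 1 per probe set and array. RMA and MAS5 are named in the submitters' processing notes, and which of them the authors used for this table, and whether all arrays were normalized together, is not stated. The values were used as they stand.

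After 64 control probe sets were removed, 14851 of 22626 were tested, those with a log2 value above 5.83 (the 40th percentile) on at least 4 arrays. In the platform annotation, which can be old, 20380 probe sets have 1 symbol, 691 several and 1555 none, and RefSeq gave the same symbol for all 242 probe sets of listed genes. The brightest probe set on average stands for a listed gene.

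Tests used limma 3.58.1 in R 4.3.3 (lmFit, eBayes, two-sided) with Benjamini-Hochberg adjustment and a threshold of 0.05, fitted to the 8 flight arrays and to the 15 calf arrays. On simulated data 98% of 200 probe sets changed by 1 log2 unit among 14851 were recovered in the flight and 99% in the suspension comparison. Of the probe sets called there, 5.77% and 5.26% had not been changed. The simulation gave all groups the same spread and made no change under 1 log2 unit, so it does not cover smaller differences. The number of arrays limits the precision, with a median standard error of 0.09. Permutation tests used scipy 1.17.1.

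The genes and lists were chosen with earlier results of these data known. Named were the 9 probe sets, all measured genes of the ketone lists, up to 4 called genes per other list and direction, and the 5 genes most like Bdh1. Alternatives covered filters, handling of several probe sets, normalization, centring, trend and robust eBayes, array weights, fits to 2 groups, arrays left out and a slow fibre covariate.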

Additional observations from a re-analysis of the deposited data

Results flagged for a closer look

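Each of the 9 probe sets was examined in the 5 groups, 45 sets of values in all, for an array far from the rest of its group by Dixon's criterion, where chance gives about 1 in 20. There were 3 such arrays, all in Oxct1. Ground AEM replicate 4 was highest for 1428140_at, at 10.50 with the nearest array at 10.35. Control replicate 2 was lowest for 1436750_a_at, at 7.29 with the nearest at 7.89. Control replicate 1 was highest for 1455804_x_at, at 6.63 with the nearest at 6.41.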

How the results depend on the processing

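The flight difference of Bdh1 1452257_at was negative under all 17 alternatives, from -1.80 to -1.21, and past the threshold in all but eBayes with trend and robust estimation (-1.44, limma adjusted p = 0.0916). Leaving out 1 array gave -1.80 to -1.24. With the slow fibre covariate, the difference of Bdh1 1452257_at was -1.21 in flight and -0.98 in suspension, each within its own experiment. A value of -0.54 for flight minus suspension came from a separate fit across both experiments. It is not the difference of these values. Nothing is read from it, since levels were not compared across the experiments. The Acat1 flight differences stayed negative and short of the threshold under all their alternatives.

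Of probe sets called in flight (945), 515 were called with 1 probe set per gene and 484 with the mean per gene, settings that test fewer features, and 565 to 1007 without 1 array. Suspension minus control (56) gave 34 and 17 under these 2 settings, 23 with the covariate, 8 without suspension replicates 8 and 9 together, and 14 to 70 without 1 array. Reloaded minus suspension (86) gave 53 and 46, 54 without replicates 8 and 9, and 58 to 104 without 1 array. Reloaded minus control (50) gave 29 and 29, 134 with array weights, 86 with only the 2 groups in the fit, 92 without replicates 8 and 9, and 24 to 68 without 1 array. For the covariate, the array weights and the 2-group fit the cause was not tested. The 60th percentile filter left no value for Oxct1 1455804_x_at. No paired analysis was possible because the groups compared share no replicate numbers.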

Other observations

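After group means were subtracted, the genes most like Bdh1 1452257_at over the 15 calf arrays were Nrd1 (Pearson correlation 0.929), Elp5 (0.914), Fbxw5 (0.898), Ndufaf3 (0.866) and Dennd4b (0.859). In the same deviations the second Bdh1 probe set had 0.627, Acat1 1424182_at 0.837, Acat1 1424183_at 0.269, Oxct1 1428140_at 0.568 and Oxct1 1436750_a_at 0.183. These values describe 15 arrays and carry no test.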
